A study of Mus musculus with 7 samples.

Results

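The SMAD proteins and the SKI family co-repressors are the intracellular arm of signalling by transforming growth factor β (TGF-β) and bone morphogenetic proteins (BMPs). The genes described are Smad1, Smad2, Smad3, Smad4, Smad5, Smad6, Smad7, Smad9, Ski and Skil, taken as the rows of the authors' deposited table whose gene name equals a listed name. All 10 were found among 23358 gene entries. The libraries were made from RNA of cells of mouse brain at stage E14.5, on a C57Bl6 background, labelled as endothelial cells. There were 4 libraries labelled as lacking Tgfbr2, the type II TGF-β receptor, and 3 libraries labelled as controls. Per the series' design text, cells were sorted for TdTomato, the red fluorescent reporter of the Ai14 allele, which marks every cell type in which Cre recombinase has acted, and RNA of 2000 to 5000 cells went into each library. The labels name neither the Cre driver nor the exons removed nor the alleles of the controls. They do not say whether replicate libraries are separate embryos, so the q-values cover differences among these libraries that may be technical.

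Ligand binding brings a type II receptor kinase together with a type I receptor, which phosphorylates receptor-regulated SMADs. SMAD2 and SMAD3 carry TGF-β and activin signals, SMAD1, SMAD5 and SMAD9 carry BMP signals, and both sets enter the nucleus with SMAD4, the common partner. SMAD6 and SMAD7 are inhibitory SMADs that are themselves induced by the pathway, and SKI and SnoN, the product of Skil, bind SMADs on DNA and recruit repressor complexes. In endothelium BMP9 acting through the receptor ALK1 is a known inducer of Smad6 and of the Id genes, and TGF-β signalling in brain vessels is known for its part in vessel stability.

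Values are FPKM (fragments for each kilobase of a transcript, relative to the fragments mapped in all), which the authors' Cuffdiff gave as 1 value per group and gene. FPKM is scaled to transcript length, and comparisons of levels between genes rest on that scaling. How well it holds for RNA amplified from few cells could not be checked here. With no value per library in hand, no spread between libraries can be given, the depth is unknown, and the q-value of the authors' deposited table is the error measure for each gene. A gene was called higher or lower in the Tgfbr2-deficient group at q under 0.05, among 13356 genes with a valid test and at least 1 FPKM in at least 1 group. Fold changes are given as log2 of (FPKM + 1), Tgfbr2-deficient over control, unless the deposited log2 fold is named. The added 1 FPKM pulls genes of low abundance towards 0. The targeted gene itself, Tgfbr2, stood at 65.4 FPKM in the Tgfbr2-deficient group and 91.1 FPKM in the control group (q = 0.0953, authors' deposited table), so its level was not called different. A gene-level value also counts reads of any exon left by recombination, and it is therefore not a check of how much working receptor transcript was left. The label of the cells as endothelial was set against marker genes. The median level of 18 endothelial markers was 22.5 FPKM in the Tgfbr2-deficient group and 1.99 FPKM in the control group, and that of 19 microglia and macrophage markers was 225 FPKM in the Tgfbr2-deficient group and 491 FPKM in the control group, so macrophage transcripts stood above endothelial ones in both. The part of this shift in the levels given below was not tested.

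Of the 10 genes, 3 were called higher in the Tgfbr2-deficient group, namely Smad6, Smad7 and Skil, 0 were called lower, 6 were not called, and Smad9 was not tested. Both inhibitory SMADs rose, whereas neither SMAD2 nor SMAD3 transcripts, nor those of Smad4, differed by more than the authors' test could separate. Of the 9 genes tested, 3 is 33.3%, beside 23.9% of all tested genes called higher, so the share of members called higher is near the background. At q under 0.01 the same 3 members were called higher, beside 20.3% of all tested genes higher and 7.68% lower, and at a minimum of 5 FPKM again these 3, beside 17.2% higher and 19.5% lower. Where a log2 fold of at least 1 in the authors' deposited table was also required, Skil was lost and 2 members remained, beside 20.1% higher and 2.76% lower. Without an FPKM minimum 24.8% of all genes were higher and 14% lower, and without rows of several symbols 24% were higher, with 3 members in each. The 0 called lower stands beside 14.7% of all tested genes called lower, and no member had an unadjusted p under 0.05 with a fall, by the authors' Cuffdiff test. The median fold of the 9 tested members was 0.20 on the log2 scale, against −0.08 for all tested genes. In bulk RNA of sorted cells, fewer cells of a type and less RNA per cell cannot be told apart, and this holds for each level below.

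**Figure D1:**
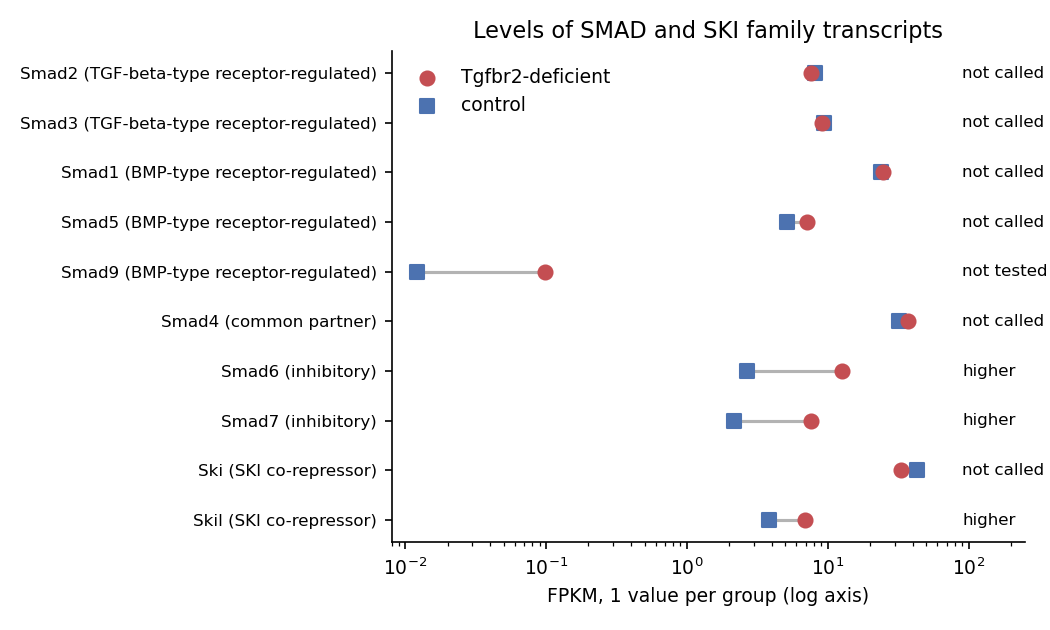
FPKM of each of the 10 genes on a log axis, 1 value per group, with circles for the Tgfbr2-deficient group and squares for the control group, and the call by the authors' q-value at the right. The 2 inhibitory SMADs show the widest separation among the 9 tested members, with Smad6 at 12.6 FPKM in the Tgfbr2-deficient group and 2.69 FPKM in the control group, while Smad2 and Smad3 nearly coincide.

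The inhibitory SMADs had the largest folds of the tested members. SMAD6 blocks mainly the BMP branch by competing for receptors and, with SMAD4, for SMAD1. Smad6 stood at 12.6 FPKM in the Tgfbr2-deficient group and 2.69 FPKM in the control group, a ratio of 4.69. The authors' deposited table gives it a log2 fold of 2.23 with q = 0.00029, the smallest q in that table, and with 1 FPKM added the log2 fold was 1.88. This fold was larger than that of 96.6% of all tested genes. Among the 1335 tested genes of similar abundance, with a mean of 6.75 to 9.92 FPKM over the groups, it was larger than that of 94.9%, and 22.2% of those genes were called higher.

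SMAD3 and SMAD4 bind DNA at a short box, GTCT or its complement AGAC, and the palindrome of both is the form that these proteins select in vitro. The start regions of Smad6 and of Smad3, its neighbour on chromosome 9, are printed because Smad6 was called higher and Smad3 was not, with each GTCT or AGAC in capitals. Each window runs 5′ to 3′ on the minus strand of GRCm38.p6 from 250 bases before the RefSeq start site to base 30 of the transcript, chr9:64022030-64022309 for Smad6 and chr9:63757965-63758244 for Smad3.
Smad6: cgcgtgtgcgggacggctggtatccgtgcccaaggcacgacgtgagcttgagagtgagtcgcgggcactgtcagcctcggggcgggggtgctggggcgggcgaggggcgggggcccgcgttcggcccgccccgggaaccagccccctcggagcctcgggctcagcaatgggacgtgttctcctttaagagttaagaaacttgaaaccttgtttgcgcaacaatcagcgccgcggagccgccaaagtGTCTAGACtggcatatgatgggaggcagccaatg
Smad3: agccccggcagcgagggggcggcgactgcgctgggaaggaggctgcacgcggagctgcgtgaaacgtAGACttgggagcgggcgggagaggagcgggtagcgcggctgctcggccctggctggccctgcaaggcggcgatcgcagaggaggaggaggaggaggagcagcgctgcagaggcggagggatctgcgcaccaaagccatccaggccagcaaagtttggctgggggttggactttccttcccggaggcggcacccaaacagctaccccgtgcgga

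The Smad6 window held the palindrome GTCTAGAC across its start site, at chr9:64022056-64022063, from position −4 to position 4 with no position 0. The palindrome was searched for after the sequence had been seen. It reads the same on both strands and occurs in 0.192% of 32851 windows of the same length from RefSeq. The windows that hold it belong to 61 genes, of which 26 were tested. Of these 26 genes 7, or 26.9%, were called higher, beside 23.9% of all tested genes, so genes with the palindrome were called higher at about the background share. Smad6, whose window was chosen because it was called higher, is 1 of the 7. The shorter box GTCT or AGAC was found in 86.2% of all windows, and Smad3 holds it at positions −183 to −180. A match is a run of letters in a window and not a measured binding site.

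Among the genes off chromosome 18, RefSeq windows were present for 6, namely Smad1, Smad3, Smad5 with 3 start sites, Smad6, Smad9 and Ski, and Skil had no entry. Besides GTCT, the letters CAGAC or GTCTG, which contain GTCT or AGAC, were found in 46.8% of all windows and among the members in 1 window of Smad5. GGCGCC, which is its own complement and is part of known BMP response elements, was found in 10.9% of all windows. Among the members it was in windows of Ski, Smad5 and Smad9, and these letters were not in the windows of Smad6, Smad1 or Smad3. The 8 windows had 62.1% to 85.4% G and C, against a median of 52.5% over all windows.

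Smad7, which blocks both branches by bringing ubiquitin ligases and phosphatases to the type I receptor, stood at 7.61 FPKM in the Tgfbr2-deficient group and 2.17 FPKM in the control group, a ratio of 3.51. The deposited log2 fold in the authors' deposited table was 1.81 with q = 0.00029, and with 1 FPKM added it was 1.44. Smad7 is widely used as a readout of TGF-β signalling, and its level was higher in the group labelled as lacking the receptor. Its fold exceeded that of 92.6% of all tested genes and of 86.5% of the 1336 tested genes with a mean of 4.31 to 6.75 FPKM, of which 31.7% were called higher. Smad6 and Smad7 have the smallest p-value that the authors' deposited table holds, 5e-05, which 2357 tested genes have in all, so q does not order them.

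Of the SKI co-repressors, Skil was called higher and Ski was not called. Skil, whose protein SnoN holds SMAD complexes inactive on target promoters and whose transcription TGF-β induces, stood at 6.94 FPKM in the Tgfbr2-deficient group and 3.82 FPKM in the control group, a ratio of 1.82. The authors' deposited table gives Skil a log2 fold of 0.86 with q = 0.00102. Ski, the founding co-repressor of the family, stood at 33.3 FPKM in the Tgfbr2-deficient group and 43.0 FPKM in the control group, with a log2 fold of −0.37 and q = 0.167 in the authors' deposited table, and was not called. The ratio of Ski to Skil was 4.79 in the Tgfbr2-deficient group and 11.3 in the control group. Such a ratio within a group does not depend on how the groups were scaled, but without values per library the change in it could not be tested. The fold of Skil was larger than that of 70.5% of genes of similar abundance, of which 31.7% were called higher, so Skil stood less far from its abundance class than Smad6 or Smad7.

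The receptor-regulated SMADs of the TGF-β branch had nearly the same level in both groups. Smad2 stood at 7.62 FPKM in the Tgfbr2-deficient group and 8.06 FPKM in the control group (q = 0.794, authors' deposited table). Smad3 stood at 9.09 FPKM in the Tgfbr2-deficient group and 9.34 FPKM in the control group (q = 0.904, authors' deposited table). Their sum was 16.7 FPKM in the Tgfbr2-deficient group and 17.4 FPKM in the control group, and the ratio of Smad3 to Smad2 was 1.19 in the Tgfbr2-deficient group and 1.16 in the control group. A q above the threshold does not show that their levels were equal, and no interval of the difference can be given without values per library. TGF-β acts on SMAD2 and SMAD3 by phosphorylation, which RNA levels do not report.

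In the BMP branch Smad1 was the most abundant member in both groups. It stood at 24.8 FPKM in the Tgfbr2-deficient group and 23.8 FPKM in the control group (q = 0.846, authors' deposited table). Smad5, which works in parallel with Smad1 downstream of BMP receptors, stood at 7.11 FPKM in the Tgfbr2-deficient group and 5.15 FPKM in the control group. Its log2 fold in the authors' deposited table was 0.46 with p = 0.0434 and q = 0.0955, so it passed before the adjustment for multiple testing and not after it. The ratio of Smad1 to Smad5 was 3.49 in the Tgfbr2-deficient group and 4.62 in the control group. Smad9, which encodes SMAD8, had 0.0988 FPKM in the Tgfbr2-deficient group and 0.0121 FPKM in the control group, both under the minimum of 1 FPKM. The authors' deposited table marks Smad9 as not tested, and no fold is drawn from levels this low.

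Smad4, the partner that both branches share, was the most abundant SMAD in both groups. It stood at 37.1 FPKM in the Tgfbr2-deficient group and 32.1 FPKM in the control group, with a log2 fold of 0.21 and q = 0.458 in the authors' deposited table. Among tested genes its level was above that of 83.7% in the Tgfbr2-deficient group and 77.3% in the control group. Of genes as abundant as Smad4 and Ski, with a mean of 33.8 to 64.1 FPKM, 5.77% were called higher and 33.8% lower, and neither gene was called in either direction.

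The order of the levels differed between the groups. In the Tgfbr2-deficient group it ran Smad4, Ski, Smad1, Smad6, Smad3, Smad2, Smad7, Smad5, Skil and Smad9, from high to low. In the control group it ran Ski, Smad4, Smad1, Smad3, Smad2, Smad5, Skil, Smad6, Smad7 and Smad9. Smad6 was therefore at rank 4 in the Tgfbr2-deficient group and rank 8 in the control group. Smad2 at 7.62 FPKM and Smad7 at 7.61 FPKM were next to each other in the Tgfbr2-deficient group, and in the control group Smad2 at 8.06 FPKM was well above Smad7 at 2.17 FPKM. Without a spread between libraries it cannot be said which neighbours in either order differ.

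Summed over all 8 SMADs, transcripts came to 106 FPKM in the Tgfbr2-deficient group and 83.3 FPKM in the control group, and most of the difference lay in the inhibitory pair. Smad6 and Smad7 together came to 20.2 FPKM in the Tgfbr2-deficient group and 4.86 FPKM in the control group, which is 19.1% of the SMAD pool in the Tgfbr2-deficient group and 5.83% in the control group. The receptor-regulated SMADs summed to 48.7 FPKM in the Tgfbr2-deficient group and 46.4 FPKM in the control group. The inhibitory to receptor-regulated ratio was accordingly 0.415 in the Tgfbr2-deficient group and 0.105 in the control group. Smad6 set against its main branch, Smad1, Smad5 and Smad9, had a ratio of 0.394 in the Tgfbr2-deficient group and 0.0929 in the control group. The ratio of Smad7 to Smad2 and Smad3 was 0.456 in the Tgfbr2-deficient group and 0.125 in the control group. The balance between the branches differed less, with Smad1, Smad5 and Smad9 at 1.92 times Smad2 and Smad3 in the Tgfbr2-deficient group and 1.67 times in the control group. These ratios describe RNA in the whole sorted pool, not within any 1 cell, and none could be tested.

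**Figure D2:**
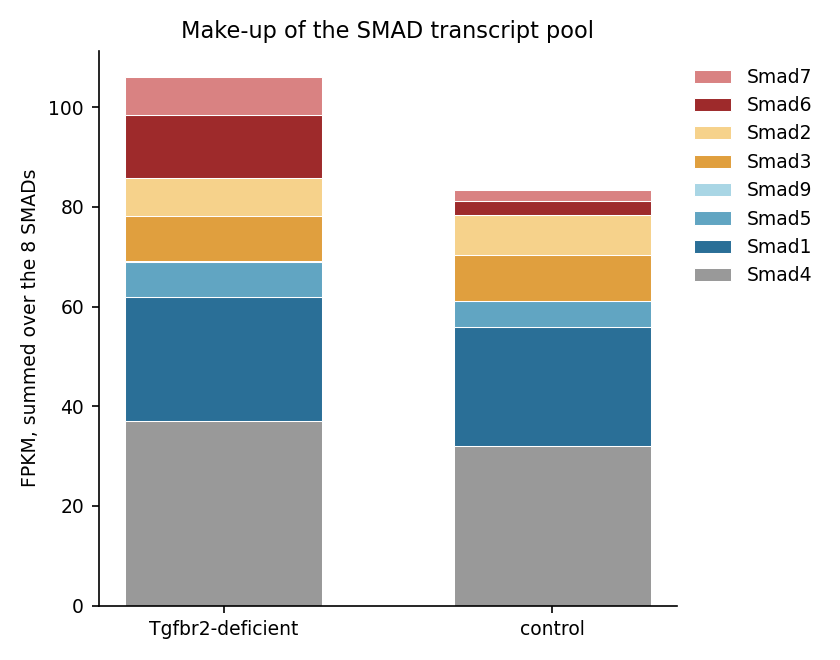
FPKM of the 8 SMADs stacked into 1 bar per group, Tgfbr2-deficient at the left and control at the right, with the bar height giving the sum. The inhibitory SMADs at the top take 19.1% of the bar in the Tgfbr2-deficient group and 5.83% in the control group, and Smad9 is too low to see.

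The genes that rose lie on separate chromosomes in mm10. Smad6 (chromosome 9, 63953076 to 64022059, minus strand, ENSMUSG00000036867 in GENCODE M21) and Smad3 (chromosome 9, 63646767 to 63757994, minus strand) lie side by side, 195 kilobases apart, with 0 other genes of the table between them. Smad6 was called higher and Smad3 was not called. Smad4, Smad7 and Smad2 all lie on chromosome 18, where Smad7 was called higher and its neighbours on both sides in this family were not. Smad1 lies on chromosome 8, Smad5 on 13, Ski on 4, and Skil and Smad9 on 3. GENCODE M21 annotates all 10 as protein-coding. Smad4 overlaps a processed pseudogene on the other strand and Smad5 overlaps 3 small RNA genes on its own strand, and since the library kit does not mark strand, reads of such overlaps cannot be separated by strand. The other 8 overlap no annotated gene.

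**Figure D3:**
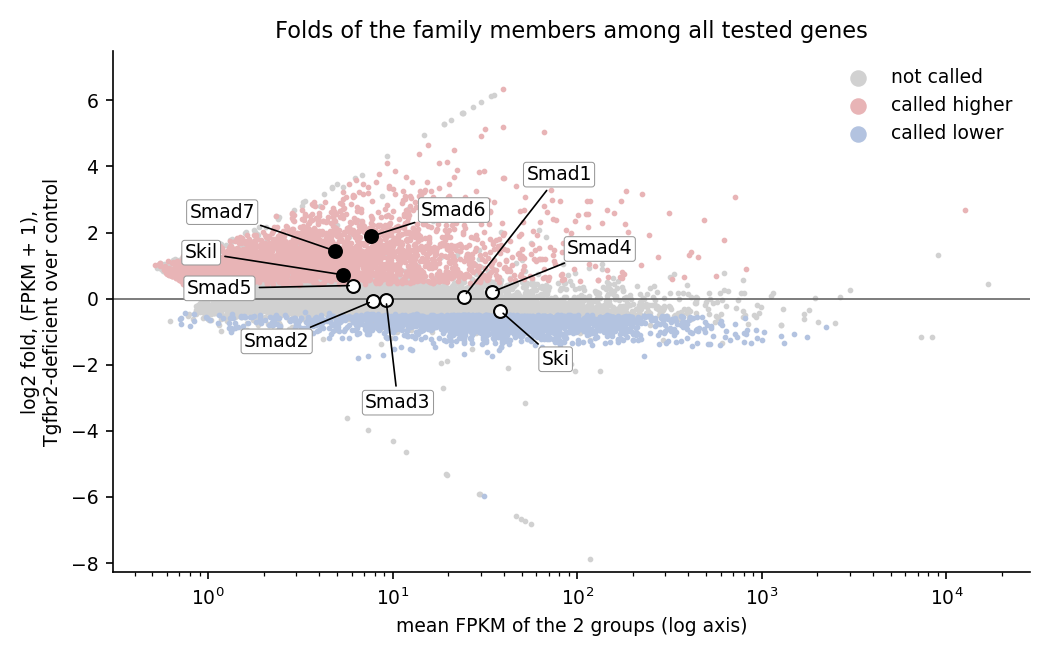
Log2 fold on FPKM + 1, Tgfbr2-deficient over control, against the mean FPKM of the 2 groups on a log axis, for the 13356 tested genes, with the 9 tested members marked as filled circles where called higher and open circles where not called. Smad6 at 1.88 and Smad7 at 1.44 lie in the upper part of the cloud at their abundance, and the others lie between −0.36 for Ski and 0.72 for Skil.

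Genes that work with the SMADs were compared with the same calls, as lists of names and without a test of the lists. Together 6 lists held 163 distinct genes, of which 149 were tested, 43 were called higher (28.9%), 17 lower (11.4%) and 89 were not called, beside 23.9% higher and 14.7% lower among all tested genes. The lists differed in direction. Of the receptors 11 of 17 and of the SMAD-induced genes 19 of 27 were called higher at q under 0.05, while co-repressors, ubiquitin enzymes, phosphatases and transport factors were mostly not called. With all tested genes split into 10 classes by mean FPKM, 53.5% of the lowest class and 5.99% of the highest were called higher. Called lower were 1.95% of the lowest class and 41.1% of the highest. The part of abundance in the differences between the lists was not tested.

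Most nuclear co-repressors and relatives of SKI were not called. Of 19 tested, 2 were called higher, 1 lower and 16 not called, with a median log2 fold of −0.14. At a minimum of 5 FPKM 1 was called higher, and 0 were called lower at q under 0.01 or with a log2 fold of at least 1 also required. Zeb1, a zinc-finger factor of mesenchymal cells, rose to 5.53 FPKM in the Tgfbr2-deficient group, against 1.60 FPKM in the control group (q = 0.00029, authors' deposited table). Zeb2, its paralogue and a SMAD-interacting repressor also active in microglia, fell to 17.4 FPKM in the Tgfbr2-deficient group, against 26.3 FPKM in the control group (q = 0.0260, authors' deposited table). Dach1, which shares the SKI domain, rose to 2.07 FPKM in the Tgfbr2-deficient group, against 0.666 FPKM in the control group (q = 0.00029, authors' deposited table). Among other genes of the list, named after their values were seen, the SMAD co-repressor Tgif1 stood at 15.6 FPKM in the Tgfbr2-deficient group and 15.7 FPKM in the control group, and Ncor1, a scaffold that SKI binds, at 26.9 FPKM in the Tgfbr2-deficient group and 25.9 FPKM in the control group.

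Co-activators and partner factors moved in both directions. Of 28 tested, 6 were called higher, 7 lower and 15 not called, with a median log2 fold of 0.04. With a log2 fold of at least 1 also required, 2 of the 28 were called lower. Those called lower included Jun, an AP-1 subunit, at 128 FPKM in the Tgfbr2-deficient group and 271 FPKM in the control group, and Tfe3, at 39.0 FPKM in the Tgfbr2-deficient group and 82.0 FPKM in the control group. E2f4, which joins SMAD3 on the Myc promoter, was also called lower, at 45.7 FPKM in the Tgfbr2-deficient group and 75.9 FPKM in the control group. Those called higher included Ets1, an ETS factor, at 23.0 FPKM in the Tgfbr2-deficient group and 3.98 FPKM in the control group. Wwtr1, which encodes the Hippo effector TAZ, was called higher at 13.4 FPKM in the Tgfbr2-deficient group and 1.94 FPKM in the control group, and Atf3, a stress-induced factor, at 18.6 FPKM in the Tgfbr2-deficient group and 8.98 FPKM in the control group. The largest q among these 6 genes in the authors' deposited table was 0.00263, for E2f4.

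Of 25 ubiquitin ligases and deubiquitinases tested, 5 were called higher, 2 lower and 18 not called, with a median log2 fold of 0.04. At q under 0.01, 1 of the 25 was called lower, and with a log2 fold of at least 1 also required 3 were called higher and 0 lower. Nedd4, a ligase of the same family as the SMURF enzymes, rose to 94.0 FPKM in the Tgfbr2-deficient group, against 21.8 FPKM in the control group. Ube2o, an enzyme that ubiquitinates SMAD6, rose to 59.4 FPKM in the Tgfbr2-deficient group, against 16.2 FPKM in the control group. Usp11 rose to 17.8 FPKM in the Tgfbr2-deficient group, against 8.98 FPKM in the control group. Wwp1 fell to 17.4 FPKM in the Tgfbr2-deficient group, against 34.3 FPKM in the control group, and Uchl5 to 26.2 FPKM in the Tgfbr2-deficient group, against 39.2 FPKM in the control group. The largest q among these 5 genes in the authors' deposited table was 0.0268, for Uchl5. Nedd4l was also called higher, at 7.19 FPKM in the Tgfbr2-deficient group and 3.82 FPKM in the control group. It was named after its values were seen, as were Smurf1 and Smurf2, whose products are among the ligases that SMAD7 brings to receptors. Neither Smurf1 nor Smurf2 was called. Smurf1 stood at 12.4 FPKM in the Tgfbr2-deficient group and 9.46 FPKM in the control group, and Smurf2 at 6.68 FPKM in the Tgfbr2-deficient group and 5.44 FPKM in the control group. Rnf111, which encodes Arkadia, the ligase that degrades SKI, SnoN and SMAD7, stood at 15.2 FPKM in the Tgfbr2-deficient group and 17.8 FPKM in the control group and was not called.

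Of 39 phosphatases, kinases, anchors and transport factors tested, 2 were called higher, 6 lower and 31 not called, with a median log2 fold of −0.14. At q under 0.01 only 2 of these 39 were called lower, and with a log2 fold of at least 1 as well as q under 0.05, 2 were called lower and 0 higher. Dab2, an endocytic adaptor that links TGF-β receptors to SMADs and is abundant in macrophages, fell to 462 FPKM in the Tgfbr2-deficient group, against 1147 FPKM in the control group (q = 0.0479, authors' deposited table). Tgfbrap1, a receptor-associated protein, fell to 15.6 FPKM in the Tgfbr2-deficient group, against 31.4 FPKM in the control group, and Cdk9, a kinase of the SMAD linker, to 36.8 FPKM in the Tgfbr2-deficient group, against 55.1 FPKM in the control group. Tob1, an antiproliferative SMAD-binding protein, rose to 15.3 FPKM in the Tgfbr2-deficient group, against 8.23 FPKM in the control group. Pmepa1, a membrane protein that sequesters SMAD2 and SMAD3, rose to 6.59 FPKM in the Tgfbr2-deficient group, against 3.69 FPKM in the control group. The largest q among these 4 genes in the authors' deposited table was 0.0203, for Cdk9.

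Upstream of the SMADs, 11 of 17 tested TGF-β and BMP receptors and co-receptors were called higher and 0 lower. Their median log2 fold was 0.61, and of all tested genes 23.9% were called higher and 14.7% lower. The count of receptors called higher fell to 7 at q under 0.01, beside 20.3% of all tested genes. It also fell to 7 where a log2 fold of at least 1 was required as well, beside 20.1% of all tested genes. Eng, the co-receptor endoglin of endothelium, stood at 32.8 FPKM in the Tgfbr2-deficient group and 11.1 FPKM in the control group. Acvrl1, which encodes ALK1, stood at 16.9 FPKM in the Tgfbr2-deficient group and 11.1 FPKM in the control group, and Acvr2b, an activin type II receptor, at 16.2 FPKM in the Tgfbr2-deficient group and 9.74 FPKM in the control group. The largest q among these 3 genes in the authors' deposited table was 0.0187, for Acvrl1. Tgfbr1, the type I receptor that phosphorylates SMAD2 and SMAD3, named after its values were seen, stood at 25.6 FPKM in the Tgfbr2-deficient group and 22.4 FPKM in the control group and was not called.

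Downstream, 19 of 27 tested SMAD-induced genes were called higher, 1 lower and 7 not called, with a median log2 fold of 1.19. Of all tested genes, 23.9% were called higher and 14.7% lower. The list holds genes of both branches, among them the Id genes, which were called higher, so its count does not measure TGF-β signalling alone. Named after their values were seen, Tgfbi (q = 0.226, authors' deposited table) and Klf10 (q = 0.0993, authors' deposited table) were not called. Without Col1a1 and Col1a2, which are also fibroblast markers, 17 of 25 were called higher and the median was 0.87. Col1a1 stood at 404 FPKM in the Tgfbr2-deficient group and 44.1 FPKM in the control group, and Col1a2 at 208 FPKM in the Tgfbr2-deficient group and 25.9 FPKM in the control group. Tsc22d1 stood at 129 FPKM in the Tgfbr2-deficient group and 23.9 FPKM in the control group, and Rhob, a small GTPase, at 71.9 FPKM in the Tgfbr2-deficient group and 122 FPKM in the control group, the 1 gene called lower, which was not called where a log2 fold of at least 1 was also required. Among feedback inhibitors like Smad6 and Smad7, named after their values were seen, Bambi, a decoy receptor, was called higher at 3.19 FPKM in the Tgfbr2-deficient group and 1.74 FPKM in the control group. Ldlrad4, which sequesters SMADs, was not called, with a log2 fold of 0.50 and q = 0.200 in the authors' deposited table.

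**Figure D4:**
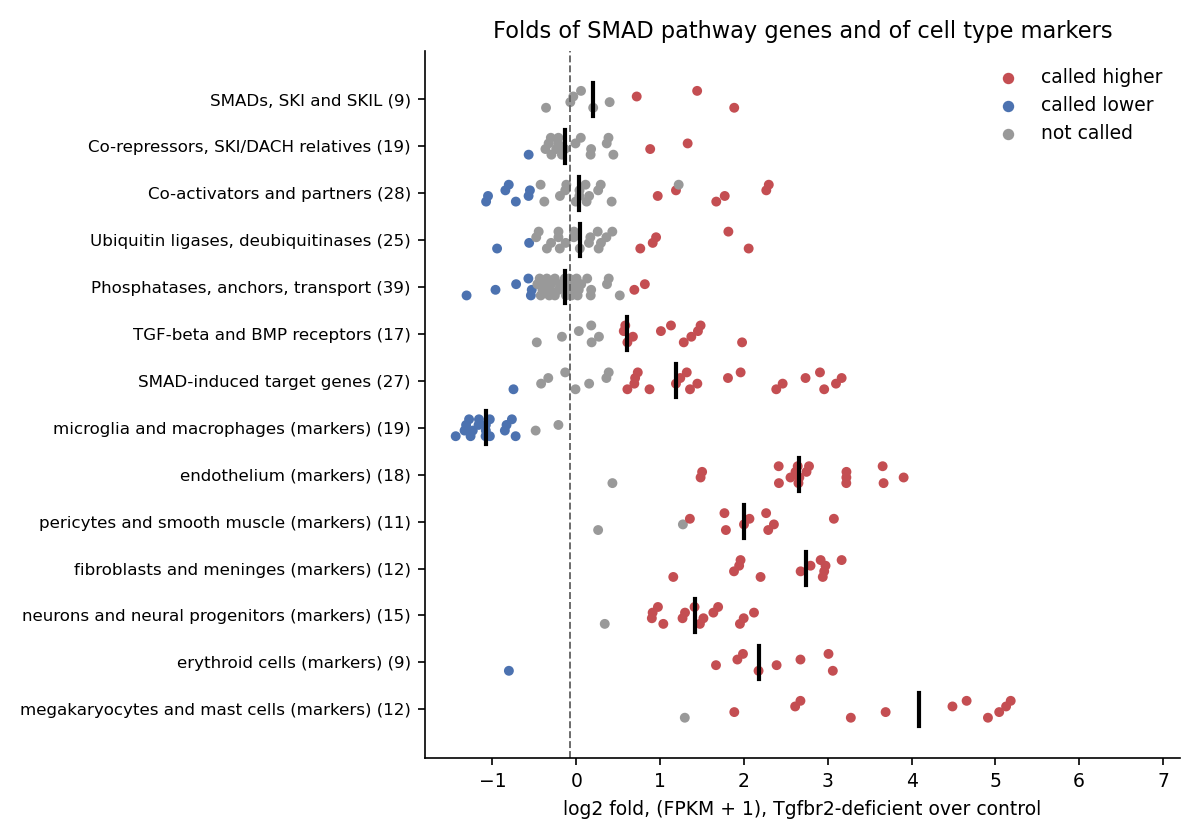
Log2 fold on FPKM + 1, Tgfbr2-deficient over control, of each tested gene by list, with the number tested in brackets, thick bars at list medians and a dashed line at the median of all tested genes. The tested members spread from −0.36 to 1.88. The median was −1.08 for the macrophage markers, 2.66 for the endothelial markers and −0.08 for all tested genes.

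Levels of markers of several cell types also differed between the groups, in either direction, and their part in the levels of the members was not tested. Of 19 microglia and macrophage markers 17 were called lower and 0 higher, and their summed level was 6578 FPKM in the Tgfbr2-deficient group and 13816 FPKM in the control group. Of 18 endothelial markers 17 were called higher and 0 lower, with a summed level of 627 FPKM in the Tgfbr2-deficient group and 117 FPKM in the control group. The endothelial markers were thus present but far below the macrophage markers in both groups, although the labels call the cells endothelial. Called higher were 9 of 11 tested markers of pericytes and smooth muscle, with the list at 122 FPKM in the Tgfbr2-deficient group and 20.2 FPKM in the control group in sum, and all 12 of fibroblasts and meninges, at 1152 FPKM in the Tgfbr2-deficient group and 141 FPKM in the control group. So were 14 of 15 of neurons and neural progenitors, at 592 FPKM in the Tgfbr2-deficient group and 311 FPKM in the control group, and 11 of 12 of megakaryocytes and mast cells, at 494 FPKM in the Tgfbr2-deficient group and 16.2 FPKM in the control group. Of 9 erythroid markers 8 were called higher and 1 lower, at 24102 FPKM in the Tgfbr2-deficient group and 3802 FPKM in the control group in sum. The highest erythroid marker alone made up 21740 FPKM of that sum in the Tgfbr2-deficient group and 3404 FPKM in the control group, and the median level of the list was lower in the Tgfbr2-deficient group, at 23.9 FPKM, against 41.1 FPKM in the control group. The median log2 fold of the 9 erythroid markers was 2.17, so the lower median level does not mean that most of them fell. No marker on these lists was listed at 0 in either group. The folds of Smad6 at 1.88 and Smad7 at 1.44 were below the median fold of the endothelial markers, 2.66. They were above the medians of the neuron and neural progenitor markers, 1.41, and the macrophage markers, −1.08. Each tested member lay between −1.08 and 2.66, but that range is wide. The median folds of the abundance classes, from 0.70 in the lowest to −0.48 in the highest, lay in it too.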

How the data were processed

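The file the authors deposited holds Cuffdiff results by gene, per the file headers. Each gene has 1 FPKM value for each group, in which the authors had already combined the replicates. The deposited log2 fold compares the Tgfbr2-deficient with the control FPKM and has no pseudocount. The deposited test statistic, a score, was used only to check signs, which differed from the fold in 0 tested genes. The p-value and q-value were used as deposited by the authors. TopHat2, Cufflinks 2.2.1, Cuffdiff and the build mm10 are named in the submitters' processing notes. Neither these nor the labels give the annotation, normalization or test options. RNA was amplified from few cells with a poly(A)-primed kit, per the labels' protocols, which adds noise to transcripts of low abundance. Single-end reads had 50 bases, per the labels.

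Of 23358 entries, 14043 had a valid test. Genes reaching 1 FPKM in either group were called at q under 0.05. The members and lists were chosen with earlier results of these data known. Of 268 list symbols, 267 matched a row, 3 of them through RefSeq synonyms. All members were described, and of each pathway list up to 3 called genes per direction with the highest mean FPKM were named, with others named after their values were seen. Abundance classes split the tested genes into 10 equal groups by mean FPKM. Coordinates are those of the deposited table, counted from 1. Promoter windows came from RefSeq (GRCm38.p6, the assembly of mm10). Python 3.11.15 and pandas 2.3.3 were used, and the calling code was tested on simulated data. Alternatives tried were other FPKM minimums, a stricter q of 0.01, a minimum log2 fold of 1, recomputed q-values, rows of several symbols left out, other pseudocounts, centred folds and ratios of FPKM + 1.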

Additional observations from a re-analysis of the deposited data

How the results depend on the processing

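Under the 6 other call rules tried, 2 or 3 members were called higher and 0 lower. Of all tested genes, 17.2% to 24.8% were called higher and 2.76% to 19.5% lower under these rules. Skil is the member lost where a log2 fold of at least 1 was also required. No fold of a called member changed sign under another pseudocount or centring. Smad6 ranged from 1.88 to 2.42, Smad7 from 1.44 to 1.98 and Skil from 0.72 to 1.26. Folds centred on 78 ribosomal protein genes are all larger by 0.54, which moves the members' median to 0.74. This centring turns Ski from −0.36 to 0.18 and the folds of Smad2 and Smad3 positive, and centring on all tested genes, which adds 0.08, also turns those of Smad2 and Smad3, none of which was called. At a minimum of 5 FPKM, 1643 of the 9558 genes then tested were higher, or 17.2%. Under that minimum 1 co-repressor was higher, since Dach1 no longer reached the minimum. At q under 0.01, 1026 of all tested genes were lower, 7 receptors were higher, and 0 co-repressors, 1 ubiquitin enzyme and 2 phosphatases or transport factors were lower. With a log2 fold of at least 1 as well, 368 of all tested genes were lower, 3 ubiquitin enzymes, 7 receptors and 0 phosphatases or transport factors were higher, and 2 partner factors, 2 phosphatases or transport factors, 0 co-repressors, 0 ubiquitin enzymes and 0 SMAD-induced genes were lower. Leaving cell type markers out of the receptor and SMAD-induced lists, chosen after seeing the data, left 10 of 16 and 17 of 25 higher. On FPKM + 1, the log2 change of the inhibitory to receptor-regulated ratio was 1.63, against 1.99 on FPKM. No paired analysis was possible because the table holds no values per library, and for the same reason no library could be left out in turn. Depth per library is unknown, so no limit of detection can be set for Smad9.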
